A study of Mus musculus with 2 samples.

Results

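The Zic genes encode zinc finger transcription factors related to the Gli proteins, and 4 of them, Zic1, Zic2, Zic4 and Zic5, were followed here through 2 histone marks of dividing incisor pulp cells. They were taken by name from 21631 mouse protein-coding genes (chromosome Y left out), each with 30 kb either side of its span. The rule itself uses names and positions and no measured value, but the family was picked with earlier results of these data known. Zic1 and Zic4 lie side by side on chromosome 9, and Zic2 and Zic5 on chromosome 14. The genes of each pair share most of their window and cannot be counted as independent, so the text treats them as 2 loci.

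The cells came from the pulp, the soft core, of the continuously growing incisor of CD1 mice at postnatal day 5. The animals had received EdU, a thymidine analogue taken up during DNA replication, at 3.3 µg per g, and 24 h later the pulp cells that carried it were collected by flow sorting. The sort was on EdU and not on a cell type marker, so any pulp cell that had replicated its DNA could enter. One group is the library for H3K4me3 and the other the library for H3K27me3, each of 1 sample with the same strain, age, dose and interval and no input library. The values are the authors' islands, meaning stretches called as enriched, each with a summit height in the authors' own units. Neither mark was measured in replicate, so no spread or test is given, and heights are compared only within a mark. The depth of the libraries is unknown because the values hold no read counts.

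ZIC factors act early in the embryo in the neural plate, its border and the neural crest, and later in the dorsal neural tube and the cerebellum. Zic1 and Zic4 are known for cerebellar growth, Zic2 for forebrain and neural tube development, and Zic5 for neural tube closure and neural crest. H3K4me3 marks promoters that are active or ready for activity. H3K27me3 is written by Polycomb repressive complex 2 over silent developmental genes, and promoters that carry both marks are often called bivalent. Cells were pooled for each library, so both marks on 1 allele and each mark in different cells cannot be told apart here.

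Both annotated pairs are compact. The spans of Zic1 (chr9:91358058-91365768, minus strand) and Zic4 (chr9:91365631-91389351, plus strand) share 0.138 kb, and their listed transcription starts are 3.20 kb apart. Zic5 (chr14:122459160-122465658, minus strand) ends 9.73 kb before the span of Zic2 (chr14:122475384-122480328). Positions are 1-based on mm10, and gene spans and starts are those of RefSeq on GRCm38.p6, the assembly called mm10. No start was listed here for Zic2, so both ends of its span were used.

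The RefSeq promoters of 3 members are printed because the members differ in CpG content, against which H3K4me3 is read below. Each runs 5′ to 3′ from 250 bases before the start to 50 after it, and capitals mark the CpG dinucleotides. They lie at chr9:91365719-91366018 (Zic1, minus strand), chr9:91368722-91369021 (Zic4, plus strand) and chr14:122465609-122465908 (Zic5, minus strand).
Zic1: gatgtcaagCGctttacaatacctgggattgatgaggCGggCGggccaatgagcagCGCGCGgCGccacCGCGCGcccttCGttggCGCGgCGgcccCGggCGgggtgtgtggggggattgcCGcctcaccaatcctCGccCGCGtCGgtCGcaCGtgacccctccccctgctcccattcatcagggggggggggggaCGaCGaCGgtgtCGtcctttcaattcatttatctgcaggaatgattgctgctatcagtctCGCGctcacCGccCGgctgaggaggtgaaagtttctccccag
Zic4: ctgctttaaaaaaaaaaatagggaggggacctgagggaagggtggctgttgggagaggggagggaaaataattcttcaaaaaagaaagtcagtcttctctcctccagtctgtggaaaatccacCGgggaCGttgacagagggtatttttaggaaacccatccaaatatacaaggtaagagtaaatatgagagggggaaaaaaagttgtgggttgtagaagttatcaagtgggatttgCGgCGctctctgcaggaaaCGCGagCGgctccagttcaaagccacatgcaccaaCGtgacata
Zic5: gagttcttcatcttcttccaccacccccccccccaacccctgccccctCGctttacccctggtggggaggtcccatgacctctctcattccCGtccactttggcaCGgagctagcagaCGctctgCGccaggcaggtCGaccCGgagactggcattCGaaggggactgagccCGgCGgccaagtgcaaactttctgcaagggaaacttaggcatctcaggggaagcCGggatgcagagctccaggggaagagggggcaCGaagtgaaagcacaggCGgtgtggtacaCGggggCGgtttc

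The Zic1 promoter held 31 CpGs, and 14.1% of the 21045 listed promoters held as many. Their median was 13, with quartiles at 4 and 25. Its GC content was 65.3%. The Zic5 promoter held 15 CpGs at 62.7% GC, close to the median, and the Zic4 promoter 8 CpGs at 46.0% GC. The hexamer GGGCGG, the GC box, was found 3 times in the Zic1 promoter, 1 time in that of Zic5 and not in that of Zic4, on either strand. Of all promoters, 46.7% held it. None of the 3 held TATAAA (12.7% of all), CAGCAGG (10.6%) or TGGGTGGTC, a Gli-type site (0.181%), on either strand.

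H3K27me3 lay over both Zic loci as broad domains that covered all 4 genes from end to end. At Zic1 and Zic4 a single island of 64.6 kb (chr9:91346801-91411399) had a summit height of 82. It began 11.3 kb before the span of Zic1 and ran 22.05 kb past that of Zic4. At Zic2 and Zic5 a single island of 53.6 kb (chr14:122445401-122498999) had a summit height of 96, and ran from 13.8 kb before Zic5 to 18.7 kb past Zic2.

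These domains stood near the upper end of the H3K27me3 islands in both width and height. Of 11341 islands, 40 (0.353%) were at least as wide as that on Zic1 and Zic4 and 171 (1.51%) at least as high. For the island on Zic2 and Zic5 the counts were 72 (0.635%) and 56 (0.494%). Only 31 islands, 0.273% of all, were at least 53.6 kb wide and at least 82 high, the lower values of the Zic pair of islands, and both Zic islands are among them. Beside the median island, with a width of 6.20 kb and a height of 12, the Zic domains were thus far wider and higher.

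**Figure D1:**
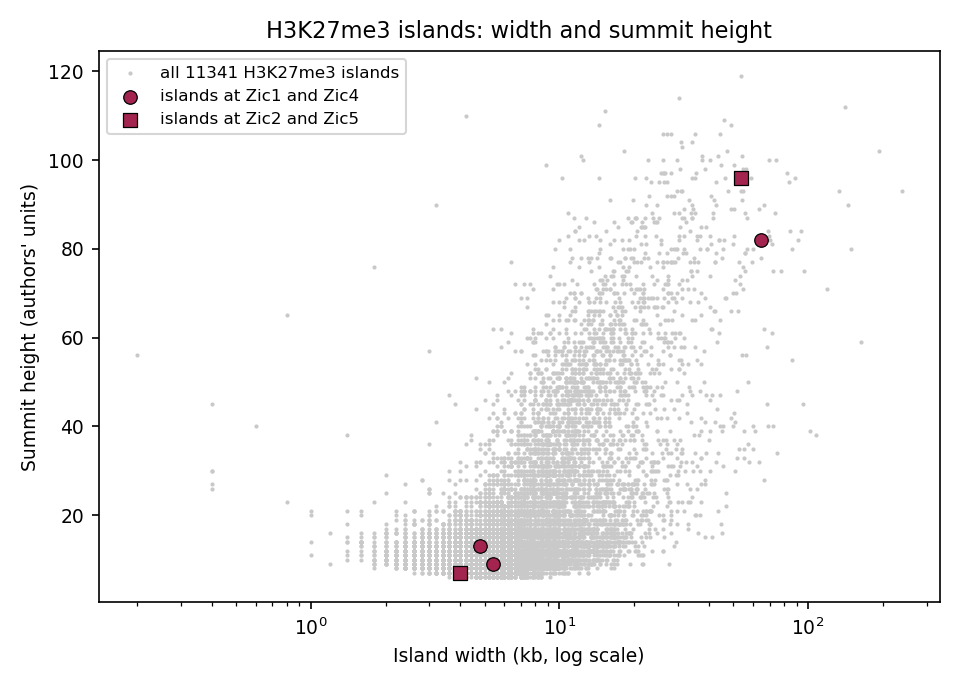
Width (log axis, kb) against summit height (authors' units) for every H3K27me3 island, shown as grey points, with the islands in the Zic windows as filled symbols. The domains on Zic1 with Zic4 (64.6 kb, 82) and on Zic2 with Zic5 (53.6 kb, 96) sit at the upper right, and the 3 smaller islands beside them, with heights of 7 to 13, in the dense lower part.

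Smaller H3K27me3 islands flanked each domain on 1 side. Past Zic4 there were islands of 5.40 kb (height 9) and 4.80 kb (height 13), the first of them 801 bp beyond the domain, within the long noncoding RNA gene Gm29478. Before Zic5 there was an island of 4 kb (height 7), also 801 bp from the domain, within the noncoding gene Gm5089. Joining islands less than 1000 bp apart would make each of these nearest flankers part of its domain.

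Counted by window, H3K27me3 covered 72.3% of the sequence around Zic1, 84.3% around Zic4, 82.5% around Zic2 and 81.6% around Zic5. The median protein-coding gene had no H3K27me3 in its window, and an island of the mark reached into the windows of 43.8% of genes. From 0.356% (Zic4) to 0.656% (Zic1) of genes had as much of their window covered.

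H3K4me3, wherever it was called in the Zic windows, lay inside the Polycomb domain. There were 6 H3K4me3 islands, 2 at Zic1 and Zic4 and 4 at Zic2 and Zic5, and all 6 were covered over their full length by H3K27me3. Genome-wide, 20.4% of the 14361 H3K4me3 islands lay wholly inside an H3K27me3 island. An H3K4me3 island in the window was itself no mark of distinction, since 73.7% of protein-coding genes had one. The mark covered 4.72% of the window of Zic1 and 3.82% of that of Zic4, near the median of 4.45% over all genes. It covered 14.8% around Zic2 and 14.4% around Zic5, above the upper quartile of 11.1%, and 17.5% and 18.0% of genes had as much. H3K4me3 took up 4.95% of the domain on Zic1 and Zic4 and 17.9% of that on Zic2 and Zic5.

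**Figure D2:**
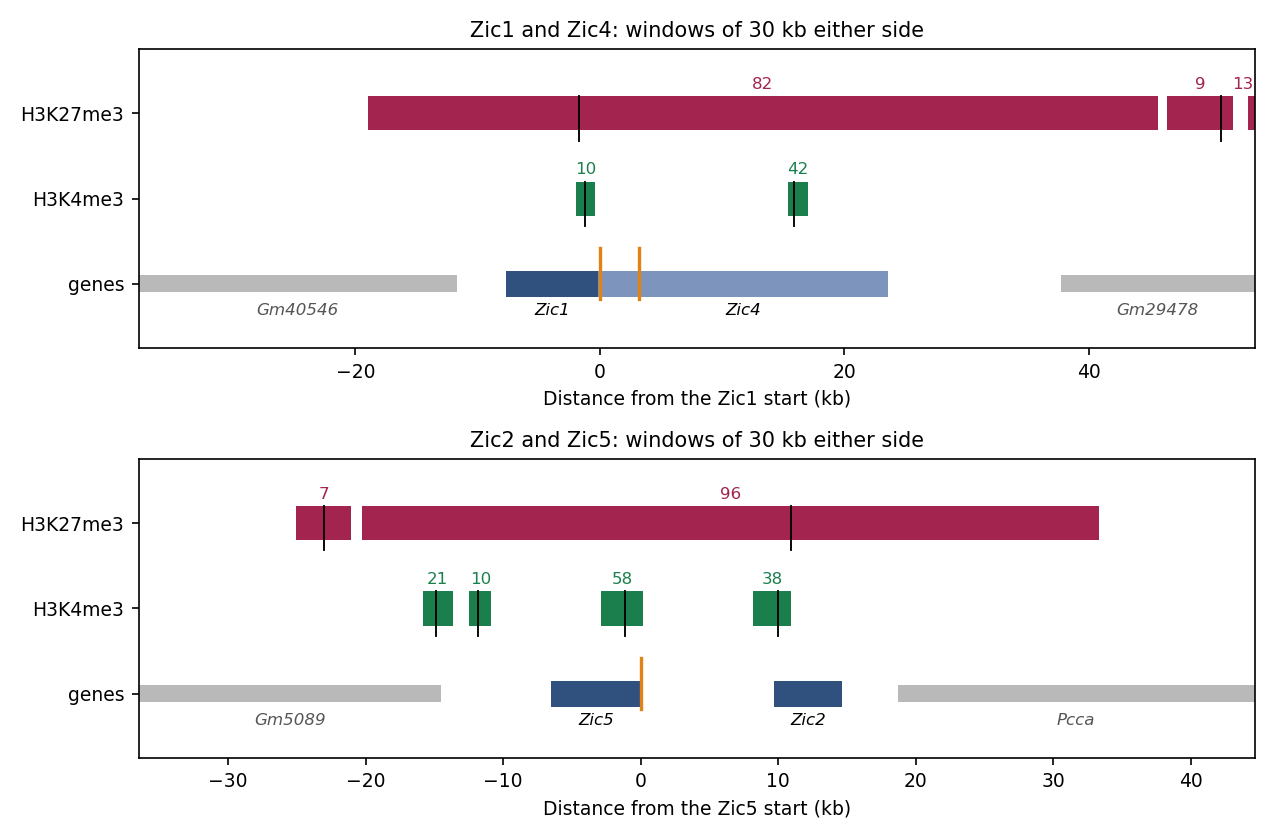
Maps of the windows at Zic1 with Zic4 and at Zic2 with Zic5, with distance in kb from the named point. Red bars are H3K27me3 islands, green bars H3K4me3 islands, black ticks their summits and numbers their heights. Blue boxes are Zic spans, with Zic4 in the lighter shade, grey boxes are some neighbouring genes, and orange ticks are listed starts. Every H3K4me3 bar lies within the extent of a long H3K27me3 bar.

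At Zic1 the H3K4me3 island was narrow, low and set inside the gene. It was 1.6 kb wide with a height of 10 (chr9:91363801-91365399), and 97.9% of all H3K4me3 islands were at least as high. Its nearer edge lay 369 bp downstream of the listed start, so the island did not reach the promoter printed above. The step of the island calls is 200 bp, which limits how exactly that edge is placed. Among listed promoters with 29 to 33 CpGs, 94.0% (1398 of 1487) had H3K4me3 within 1 kb of the start. In 1397 of those 1398 the start itself lay under an island, and Zic1 was the exception. Among all 2884 such starts with 31 or more CpGs, 6 were not under the island. The median height in this set was 135 with quartiles at 99 and 169, and 3 of the 1398, Zic1 included, were as low as 10. Over all CpG contents, 215 of 12339 listed starts with H3K4me3 within 1 kb (1.74%) were not under it. This comparison was chosen after the position of the Zic1 island had been seen.

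Zic4 had no H3K4me3 island at its listed start. The nearest was the island in Zic1, 3.57 kb away, and the second island of the locus lay 12.2 kb into Zic4 (chr9:91381201-91382799, 1.6 kb, height 42). That internal island was the higher of the pair at this locus. Of promoters with 6 to 10 CpGs, as Zic4 has, 42.9% had H3K4me3 within 1 kb. The outermost annotated end of Zic4, 232 bp from the island in Zic1, would give the gene H3K4me3, so the call depends on which start is used.

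Zic5 carried the highest H3K4me3 of the members. Its island was 3 kb wide with a height of 58 (chr14:122462801-122465799), and it covered the listed start, with the summit 1.15 kb inside the gene. Of the promoters with 13 to 17 CpGs, 84.5% had the mark within 1 kb, with a median height of 93 and quartiles at 52 and 132. The Zic5 value thus lay between the lower quartile and the median of that set.

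Zic2 had an island of 2.80 kb with a height of 38 over the lower end of its span (chr14:122473801-122476599), with the summit 232 bp from that end. The same island overlapped the noncoding gene 2610035F20Rik, whose span ends just before that of Zic2. The other islands of the locus were of 2.20 kb with a height of 21 (chr14:122449801-122451999), over the listed starts of Gm5089, and of 1.6 kb with a height of 10 (chr14:122453201-122454799), which overlapped no annotated gene.

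By this order of H3K4me3 height at the start, Zic5 stood at 58, Zic2 at 38 and Zic1 at 10, with none called for Zic4. Without replicates it cannot be said which of these neighbours differ. Over the rule of 1 kb around listed starts, or around both ends where no start is listed, 3 of the 4 members had H3K4me3 (59.3% of all protein-coding genes), all 4 had H3K27me3 (20.8%) and 3 had both (15.6%). None of the 6 Zic islands was among the 50% of H3K4me3 islands with the higher summits, above a height of 90, while both H3K27me3 domains were among the higher 50% of their mark. In that set all 4 members carried H3K27me3 only. The shares of all protein-coding genes given above are for all islands and not for that set.

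Among the 2932 H3K4me3 islands that lay wholly inside H3K27me3, the Zic islands ranged from narrow and low to above the median. Widths there had a median of 2.40 kb (quartiles 1.80 and 3.40 kb) and heights a median of 35 (18 and 63). The Zic5, Zic2 and internal Zic4 islands, with heights of 58, 38 and 42, fell between the median and the upper quartile of height, and the islands at Zic1 and before Zic5, both at 10, fell below the lower quartile. The island on Gm5089, at 21, fell between the lower quartile and the median. By width, the 3 islands of 1.6 kb, in Zic1, in Zic4 and before Zic5, lay below the lower quartile, and the other 3, of 2.20 to 3 kb, within the quartiles.

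**Figure D3:**
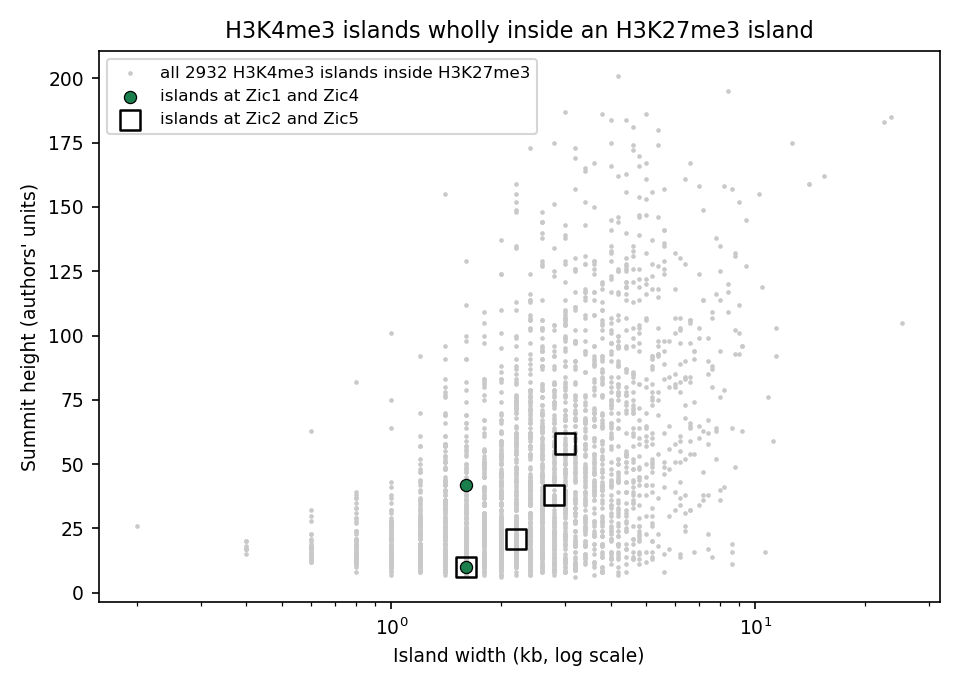
Width (log axis, kb) against summit height (authors' units) for the 2932 H3K4me3 islands wholly inside an H3K27me3 island, shown as grey points. Filled circles are islands at Zic1 and Zic4, and open squares islands at Zic2 and Zic5. The islands at 1.6 kb and a height of 10 coincide for both loci.

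The protein-coding genes with both marks were also split at an H3K27me3 height of 82, the lower of the Zic domains. The 169 genes at or above it had a median H3K4me3 height of 26 (quartiles 15 and 49), and the 3216 below it a median of 63 (31 and 109). Among the 169, 23.1% were as high as Zic5, 37.3% as high as Zic2 and 94.1% as high as Zic1. Zic5 and Zic2 thus had more H3K4me3 than most genes under H3K27me3 of this height, and Zic1 less. Of the 237 genes with H3K27me3 of that height at the start or ends, 71.3% had H3K4me3 there.

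The Zic2 and Zic5 domain held 4 separate H3K4me3 islands, and 4 of the 11341 H3K27me3 islands (0.0353%) held that many or more. That share is not matched for width. All 4 were 50 kb or wider, as were 89 of the 11341 islands, while the median island was 6.20 kb wide. Among the 4 were the 193 kb island on the Hoxa genes with Evx1 and the 141 kb island on the Hoxd genes with Evx2, with 5 each. These genes were named after the counts were seen. The domain on Zic1 and Zic4 held 2, as 179 islands (1.58%) did or exceeded.

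The summit of each Zic domain fell where H3K4me3 also lay. At Zic1 and Zic4 it stood at position 91364096 of chromosome 9, within the low H3K4me3 island in Zic1 and 448 bp from its summit. At Zic2 and Zic5 it stood at 122476560 of chromosome 14, within the H3K4me3 island on Zic2 and 944 bp from its summit. Such a meeting was common: in 76.5% of the 2718 H3K27me3 islands that wholly held an H3K4me3 island, the H3K27me3 summit lay under H3K4me3. In the 59 of these that were 50 kb or wider the share was 52.5%, although H3K4me3 covered a median of 5.95% of their length.

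Both genes of each Zic pair shared 1 H3K27me3 island, and neither pair shared an H3K4me3 island. Of 12523 neighbouring protein-coding pairs no more than 20 kb apart, 5.98% shared an H3K27me3 island and 18.3% an H3K4me3 island. A list of 16 other linked pairs of developmental genes gave 2 with a shared H3K27me3 island. These were Dlx1 with Dlx2 (28.2 kb, height 20), homeobox genes of the jaw and teeth, and the ligand genes Wnt3 with Wnt9b (55.8 kb, height 79). Many pairs of that list lie farther apart than the Zic genes, from overlapping spans to 661 kb, so the counts are not matched for distance. Dlx5 with Dlx6, 9.83 kb apart and so spaced like Zic2 and Zic5, shared H3K4me3 (28.6 kb, height 200) but no H3K27me3 island. For each pair, summits were taken over the whole stretch from 30 kb before the first gene to 30 kb past the last. In widely spaced pairs such a summit can lie far from both genes. Of the 16 pairs, 11 had a higher H3K4me3 summit in this stretch than both Zic loci (median 145 over the pairs with an island). For H3K27me3, 9 had a higher summit than the 82 at Zic1 and Zic4, 3 of them above the 96 at Zic2 and Zic5. Some pairs had no tall H3K4me3. Six2 with Six3 and Olig1 with Olig2, factors of eye, kidney and neural tissue, had H3K4me3 no higher than 24 and 12. Their H3K27me3 was as high as 99 and 102. Irx1 with Irx2 (27 and 85) and Nkx2-1 with Nkx2-9 (15 and 99) were similar over their wider stretches. Myf5 with Myf6, 5.92 kb apart, went the other way, with no island of either mark.

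The nearest protein-coding neighbours differed between the loci. Zic1 and Zic4 stood alone, with Tbc1d2b 1087 kb below (H3K4me3 only, 3 kb, height 146) and Plscr5 797 kb above (neither mark). Zic2 and Zic5 stood between Clybl, a mitochondrial enzyme gene 56.9 kb below with H3K4me3 only (5.20 kb, height 92), and Pcca, which encodes a subunit of mitochondrial propionyl-CoA carboxylase and begins 4.04 kb above Zic2. Pcca had 2 listed starts, 49.96 kb apart, in different states. The first lay inside the Zic2 and Zic5 domain, 14.6 kb from its edge, with no H3K4me3 within 1 kb. The second lay under an H3K4me3 island of 5.80 kb with a height of 135 (chr14:122532401-122538199) and had no H3K27me3 within 1 kb. From the edge of the domain to that island was 33.4 kb.

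Noncoding genes shared the domains. Listed starts of Gm40546, Gm40545, A730094K22Rik and Gm29478 lay under the Zic1 and Zic4 island, and none had H3K4me3 within 1 kb. At the other locus Gm5089 had both marks at its listed starts. What these genes do is not known here.

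The Zic genes were then set beside other gene lists by the highest summit of each mark within 30 kb of each gene. Such a window summit can lie on an island away from the gene itself. The 4 members stood at 42 to 58 for H3K4me3 (median 50) and 82 to 96 for H3K27me3 (median 89), where all protein-coding genes had medians of 102 and 0. Their nearest relatives, the Gli and Glis genes, showed the reverse. All 6 had H3K4me3 at the start, with window summits of 111 to 198, and their H3K27me3 summits did not exceed 48. Gli1, a hedgehog target, carried H3K4me3 of 8 kb (height 97) and H3K27me3 of 12.2 kb (height 48). Gli2, the main hedgehog activator, carried 6 kb (128) and 2.20 kb (11). Glis1 (9.40 kb, 179) and Glis3 (4 kb, 116) also had weak H3K27me3 (heights 13 and 17). Gli3, known mainly as a hedgehog repressor, carried H3K4me3 of 9 kb (height 198) and Glis2 of 9.60 kb (height 166), and neither had H3K27me3 in its window.

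A list of 10 regulators of the hindbrain roof and cerebellum, where Zic1 and Zic4 are known to act, was close to the Zic genes in H3K27me3. All 10 had it at the start, 7 with H3K4me3, and window summits ran from 60 to 119 (median 85). H3K4me3 summits ran from 0 to 58 (median 23.5). Atoh1, the cerebellar granule cell factor, lay under 15.0 kb of H3K27me3 at a height of 60, with an H3K4me3 island of 2.40 kb and a height of 9. The midbrain-hindbrain gene En1 carried H3K27me3 of 42.6 kb (height 95) and H3K4me3 of 3.20 kb (height 18). En2, of the same region, carried 42.2 kb (77) and 4.40 kb (35). The roof plate gene Lmx1a carried 22 kb (87) and 4.2 kb (39). Barhl1 (24.6 kb), Otx2 (66.8 kb) and Ptf1a (44.4 kb) carried H3K27me3 only.

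The 13 genes of the neural plate border and neural crest were mixed. Of these, 11 had H3K27me3 and 9 had H3K4me3 at the start, 7 with both, and the medians of the window summits were 61 and 110. The H3K4me3 median of 110 was the window value of Sox10, which had no H3K4me3 at its start or in its span. Pax3 (93.6 kb, height 84), Pax7 (71.6 kb, 81), Tfap2b (43.8 kb, 61) and the crest and glial gene Sox10 (19.2 kb, 72) carried H3K27me3 only. Foxd3, an early crest gene, had a low H3K4me3 island (2.80 kb, height 13) under 30.8 kb of H3K27me3 (height 104). Msx1 (14.0 kb, 159), Msx2 (17.6 kb, 205) and Tfap2a (17.6 kb, 135), which are also used in facial mesenchyme, had tall H3K4me3 with H3K27me3 heights of 26, 10 and 67. The crest genes Snai1 (7 kb, 170) and Snai2 (4.2 kb, 98) carried H3K4me3 only.

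Markers of the tissue served as a check of the labels. The 7 dental mesenchyme genes Msx1, Msx2, Pax9, Lhx6, Lhx8, Prrx1 and Twist1 all carried both marks at the start. Their window H3K4me3 summits were 92 to 205, each above those of the Zic genes, and their window H3K27me3 summits 12 to 61, each below. At the start itself the H3K4me3 island of Lhx6 had a height of only 33, below those at Zic5 (58) and Zic2 (38). The other dental mesenchyme genes stayed above all Zic genes there. Of the odontoblast genes, Dspp and Dmp1 had neither mark and Sp7 had H3K4me3 only (25.2 kb). None of the endothelial and blood genes Pecam1, Cdh5 and Ptprc had either mark at the start. Among epithelial genes, Krt5 had neither, Krt14 a low H3K4me3 island (height 8), and Epcam both marks. Of the glial and neural markers, Sox10 and Stmn2 had H3K27me3 only and Tubb3 both. How far other cell types in the sort contributed to the low H3K4me3 islands at the Zic genes was not tested.

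**Figure D4:**
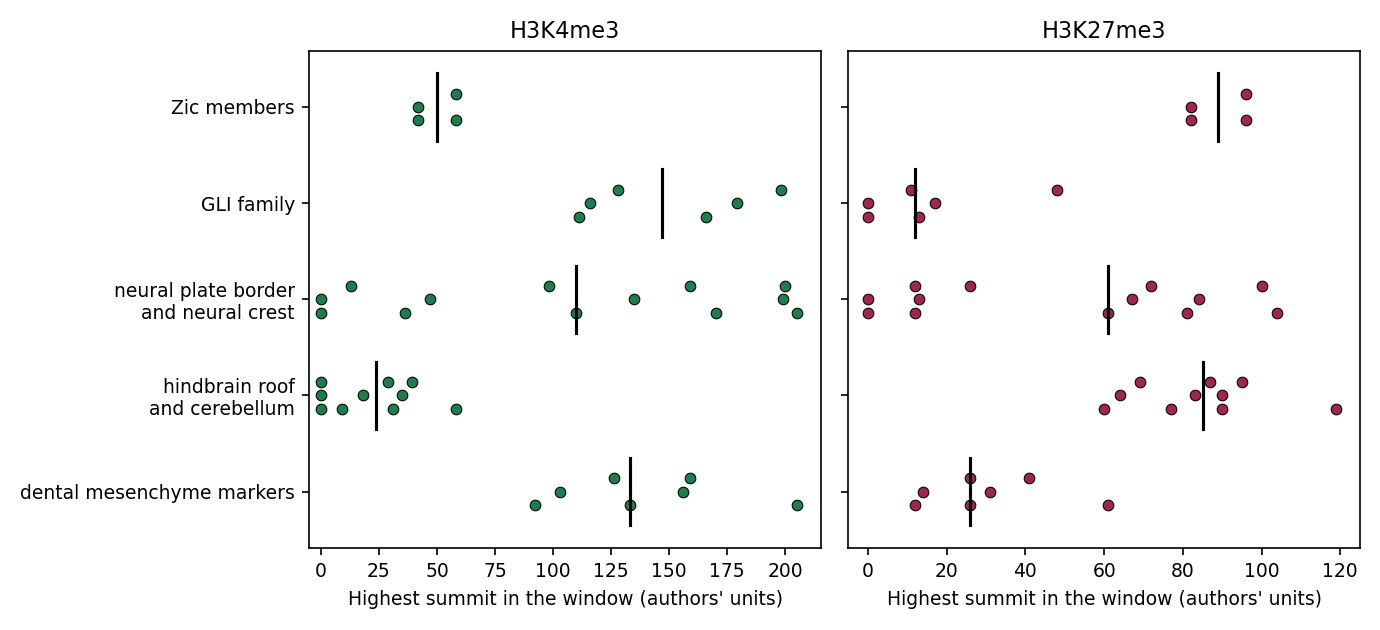
Highest H3K4me3 summit (left) and H3K27me3 summit (right), in authors' units, in the window of 30 kb either side of each gene. Each point is 1 gene, 0 means no island, and black bars are list medians. The Zic genes (42 to 58 and 82 to 96) sit left of all 7 dental mesenchyme genes for H3K4me3 and right of all of them for H3K27me3, and the heights are not comparable between panels. A window summit can lie away from the start of the gene, as for H3K4me3 at Lhx6 (133 in the window, 33 at the start).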

How the data were processed

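Chromatin immunoprecipitation sequencing for H3K4me3 and H3K27me3, 1 library each, was analysed from the called islands. The submitters' processing notes name BWA, SICER and mm10. Versions and settings were not given in the sources used here. The authors deposited a summit height score for each island, a whole number whose scaling between libraries is not stated, per the file headers. Each island was matched to the 1 summit inside it. Island widths were 1 bp short of a multiple of 200 bp and are printed rounded up by that base. Signal tracks were not used.

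Gene spans came from RefSeq (GRCm38.p6) for 21631 genes. A listed start was found for 17274 of these, and for the others both span ends were used. A mark was called at a start by overlap of 1 bp or more within 1 kb. Windows covered 30 kb either side. Neighbouring pairs lay within 20 kb. With 1 library per mark no test was run. Depth is unknown. Overlap code was tested on simulated data. Computation used Python 3.11.15, pandas 2.3.3, numpy 2.4.6, scipy 1.17.1 and matplotlib 3.10.9.

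The members, the gene lists and the comparisons were chosen with earlier results of these data known. Named genes are the members, the nearest protein-coding neighbours, all Gli and Glis genes, the markers, and up to 4 genes per mark state in each other list (all where a state held 6 or fewer). Developmental pairs and noncoding genes in the windows were named after their values were seen. Using both span ends for every gene was an alternative added after seeing the data. Protein sequences were not analysed here, and some genes of the lists are not reported here.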

Additional observations from a re-analysis of the deposited data

How the results depend on the processing

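All 4 genes kept H3K27me3 at every start window tried and in the higher-summit set described next, where both pairs also shared their island, whereas the H3K4me3 calls rested on summits of middle or low height. With only the 50% of islands with the higher summits, 0 H3K4me3 islands (0 kb) and 3 H3K27me3 islands were left in the Zic windows, and 0 members had H3K4me3 or both marks. In that set the genes with both marks numbered 2 of the neural plate border list and 0 of the hindbrain list. With both annotated ends used for every gene, all 4 Zic members and 2 of the Gli and Glis genes had both marks. The shares of all protein-coding genes given in the Results are for the main settings. The counts in these changed settings thus have no matched share beside them. With flanks of 0 kb the windows held 7.27 kb of H3K4me3, 2 H3K27me3 islands and 42.7 kb of H3K27me3, with 10 kb they held 2 H3K27me3 islands, and with 100 kb they held 21.2 kb of H3K4me3 and 9 H3K27me3 islands. Merging islands within 1000 bp left 3 H3K27me3 islands. The share of neighbouring pairs with 1 H3K4me3 island was 24.3% within 10 kb, 13.8% within 50 kb and 12.9% in the higher-summit set, and with 1 H3K27me3 island 7.66%, 4.57% and 5.06%. The share of genes with as much H3K27me3 as a member ranged from 0.333% to 2.59% over the settings. For H3K4me3 it was 17.5% to 53.9% in the main setting and moved more, from 7.5% to 73% over the flanks and gene sets tried. No paired analysis was possible because each mark has 1 library. With no read counts, no detection limit can be set, so a start without an island is not shown to lack the mark.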

Other observations

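The islands on the Hoxd and Hoxa genes held more separate H3K4me3 islands than the one on Zic2 and Zic5. H3K4me3 made up 8.25% of the Hoxd island (heights 15 to 36) and 4.87% of the Hoxa island (8 to 28), against 17.9% (10 to 58) at Zic2 and Zic5. The remaining H3K27me3 island with as many as Zic2 and Zic5, 50.4 kb wide, had a higher share, 31.7% (8 to 54). No H3K4me3 summit in these islands reached the median height of 90 for that mark.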
